A study of Mus musculus with 6 samples.

Results

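The nuclear genes of oxidative phosphorylation were measured in mouse bone marrow-derived macrophages, which are cells grown and matured in culture from marrow precursors. They are 48 genes for subunits of respiratory complexes I to V and for cytochrome c, picked by name. All 48 are among the 16836 genes of the deposited table and among the 12118 that were tested. RNA from Ube3a knockout mice (KO, labelled UBE3A KO and Ube3a-/-) was sequenced in 3 libraries and RNA from wild-type littermates (WT) in 3. No treatment, age, strain or knockout allele is given in the labels, and they leave unsaid whether the libraries are of separate animals. The p-values therefore measure the spread between these libraries, which may be technical in part.

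Oxidative phosphorylation takes place at the inner mitochondrial membrane. Complex I oxidises NADH and complex II oxidises succinate, and both pass electrons by way of ubiquinone to complex III, then to cytochrome c and to complex IV, where oxygen is reduced. Complexes I, III and IV pump protons, and complex V, the ATP synthase, makes ATP as the protons flow back. Complex II is encoded wholly in the nucleus, while the other complexes combine nuclear subunits with a few made from mitochondrial DNA. In macrophages the balance between this pathway and glycolysis is known to shift with the activation state. Ube3a itself encodes a HECT-type E3 ubiquitin ligase.

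Promoters are shown because respiratory genes share transcription factor sites, of which that of nuclear respiratory factor 1 (NRF1) is the best known. RefSeq windows (GRCm38.p6) of 250 bases before to 50 after the start were matched by symbol for 37 of the 48 members. The NRF1 letters are GCGC, any base and TGCGC in a row, and were searched on both strands. They were present in 9 of the 37, or 24.3%, against 12.4% of 8841 tested genes with a window. Counted by window, they were present in 25% of 40 member windows and in 4.60% of all 32851 windows. The 4 windows printed here run 5′ to 3′ on the strand of the gene, and capitals mark these letters or their reverse complement. They hold 2 matches in Cox6a1 (chr5:115348909-115349208, minus strand), 3 in Sdha (chr13:74350191-74350490, minus strand), 1 in Atp5c1 (chr2:10080383-10080682, minus strand) and none in Cycs (chr6:50566520-50566819, minus strand). Only exact matches were counted. The Cycs window holds tcgcatgcgc, which differs from the letters in its first base alone, so a site there is not excluded. Another window of Atp5c1 (chr2:10080461-10080760, minus strand) has no match.
Cox6a1: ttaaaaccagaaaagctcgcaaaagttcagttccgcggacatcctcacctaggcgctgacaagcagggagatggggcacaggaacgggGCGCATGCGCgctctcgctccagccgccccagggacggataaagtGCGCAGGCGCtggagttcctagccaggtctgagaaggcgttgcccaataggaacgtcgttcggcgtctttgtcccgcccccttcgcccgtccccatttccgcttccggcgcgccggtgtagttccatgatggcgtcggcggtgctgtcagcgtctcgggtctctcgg
Sdha: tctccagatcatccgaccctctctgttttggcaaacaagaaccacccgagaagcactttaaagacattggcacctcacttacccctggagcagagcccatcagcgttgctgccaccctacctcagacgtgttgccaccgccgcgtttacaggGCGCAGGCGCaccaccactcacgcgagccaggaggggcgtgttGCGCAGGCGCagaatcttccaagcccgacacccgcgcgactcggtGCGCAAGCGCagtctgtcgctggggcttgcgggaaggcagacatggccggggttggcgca
Atp5c1: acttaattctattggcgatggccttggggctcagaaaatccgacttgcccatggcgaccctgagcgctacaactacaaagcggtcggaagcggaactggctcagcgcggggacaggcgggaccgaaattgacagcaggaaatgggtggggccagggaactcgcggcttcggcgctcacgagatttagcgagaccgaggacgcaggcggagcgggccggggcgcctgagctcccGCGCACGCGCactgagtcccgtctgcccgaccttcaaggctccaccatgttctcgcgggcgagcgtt
Cycs: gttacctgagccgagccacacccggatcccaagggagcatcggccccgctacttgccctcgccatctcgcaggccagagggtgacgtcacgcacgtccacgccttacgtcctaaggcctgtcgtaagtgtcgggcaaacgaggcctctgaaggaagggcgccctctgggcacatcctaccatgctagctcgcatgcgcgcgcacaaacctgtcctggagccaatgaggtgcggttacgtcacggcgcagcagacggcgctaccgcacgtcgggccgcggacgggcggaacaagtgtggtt

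Levels are given as CPM, the reads of a gene scaled to one common library size, for which the authors' scaled library sizes were used. Libraries held 25454862 to 35517269 reads, and the 48 genes drew 339 to 30349 reads each per library. Ube3a checked the labels, with 69.7, 61.2 and 77.0 CPM in the KO libraries and 207, 194 and 178 CPM in the WT libraries (limma with Benjamini-Hochberg adjustment, adjusted p = 0.00444). All 10 macrophage markers were present, and their summed level was 14048 to 16667 CPM in KO and 15230 to 16031 CPM in WT, most of it from Lyz2. Of the 10 markers 7 had a positive log2 fold change, KO over WT, with a median of 0.10. The median was 0.015 to 0.18 with single libraries left out, and 0.17 without replicate 2 of both genotypes. Fcgr1, an Fc receptor gene, had 188, 154 and 174 CPM in KO and 85.6, 162 and 118 CPM in WT. Of the 10 markers it was the only one with an unadjusted p under 0.05. It was not called (limma with Benjamini-Hochberg adjustment, adjusted p = 0.866). None of 7 T and NK cell markers was in the table. Of 10 neutrophil markers 8 were in the table, without Ly6g, and the 4 tested summed to 2.72 to 9.68 CPM in KO and 4.81 to 14.5 CPM in WT. All 4 had a negative log2 fold change, and 0 had an unadjusted p under 0.05. Their median was −0.48, and −0.79 to −0.17 with single libraries left out. It was −0.84 without replicate 2 of both genotypes. Cd34, a progenitor marker, had 25.8, 24.5 and 34.0 CPM in KO, against 77.3, 28.9 and 74.1 CPM in WT. Itgax, a marker of dendritic cells, had 90.5, 58.5 and 48.6 CPM in KO and 40.9, 145.8 and 41.6 CPM in WT. Their part in the results was not tested. Xist was nearly absent from replicate 2 of each genotype, with 28 reads in KO and 14 in WT. The other libraries had 30161 to 42232. For the members and for some other lists the count or the median is also given without these 2 libraries. In bulk RNA, fewer cells of a type and less RNA per cell cannot be told apart.

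The respiratory genes stood at nearly the same level in both genotypes. None of the 48 was called changed (limma on log2(CPM + 1) with Benjamini-Hochberg adjustment over all 12118 genes, smallest adjusted p = 0.866), where 0.0165% of all tested genes were called, Ube3a being 1 of the 2. An unadjusted p under 0.05 was reached by 1 member, against 4.13% of tested genes (1.68% higher and 2.44% lower in KO). The summed level of the 48 was 4922, 5172 and 5022 CPM in the 3 KO libraries and 4909, 4866 and 5089 CPM in the 3 WT libraries, in replicate order. The genotypes overlapped, and the KO mean, 5039 ± 126 CPM, was 101.7% of the WT mean of 4955 ± 118 CPM (SD, n = 3 each, as for every ± value). Log2 fold changes, KO over WT, ran between −0.16 in Cycs and 0.15 in Uqcrq, where the added 1 CPM shrinks the changes of weakly expressed genes.

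The intervals give the range of changes that these libraries leave room for. For all 48 genes the 95% interval of the fold change lay within 1.5-fold in either direction, as it did for 90.4% of tested genes. For 45 it lay within 1.25-fold, against 52.1% of tested genes. The exceptions were Uqcrq, Cycs and Cox6a1, whose intervals reached 1.36-fold, 1.32-fold and 1.27-fold. Among the 8085 tested genes in the members' range of mean level, 13.3 to 823 CPM, these shares were 95.3% and 68.1%. The share within 1.25-fold was 89.6% in the mitochondrial ribosome, 84.6% in the citric acid cycle and 84.4% in the cytosolic ribosome. It was 71.9% in further nuclear subunits and 10% in subunits made from mitochondrial DNA. Most members lay slightly on the KO side, with a positive log2 fold change in 34 and a negative one in 14, against 50.4% positive over all tested genes. Their median was 0.030 and that of all tested genes 0.0015. The median moved with single libraries. It was 0.048 when KO replicate 1 was left out, 0.013 when KO replicate 2 was and 0.030 when KO replicate 3 was, and leaving out WT replicate 1, 2 or 3 gave 0.020, 0.013 or 0.052. Without replicate 2 of both genotypes 23 of 48 were positive and the median was −0.0070.

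**Figure D1:**
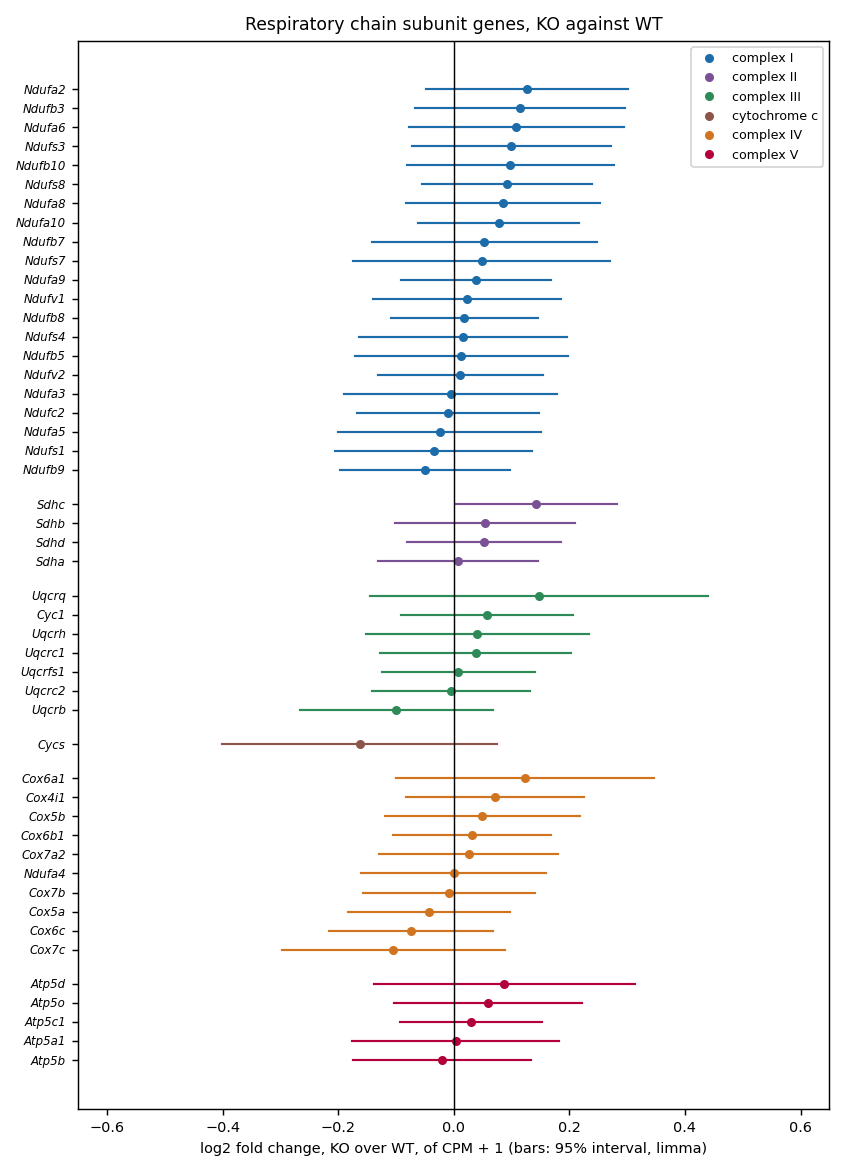
Log2 fold change of CPM + 1, KO over WT (horizontal axis), for each of the 48 genes, ordered within complexes; bars are 95% intervals from limma with 3 libraries per genotype. Points lie between −0.16 and 0.15, and Sdhc is the only gene whose interval excludes 0.

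Non-overlap of the genotypes was about as frequent among the members as among all genes. It was found in 6 of 48 members, 12.5%, against 9.95% of tested genes. KO was higher in Sdhc, Ndufs8, Ndufa10 and Atp5c1 and lower in Ndufb9 and Uqcrb. Over all tested genes 4.41% were higher and 5.55% lower without overlap.

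Complex I, the NADH dehydrogenase, had 21 measured subunits, of which 16 had a positive and 5 a negative log2 fold change, with a median of 0.039. Their summed level was 1062, 1114 and 1101 CPM in KO replicates and 1049, 1058 and 1083 CPM in WT replicates, so the ranges overlapped. Ndufa2, an accessory subunit of the NADH-oxidising arm, had the largest difference of the complex. It had 45.5, 46.3 and 44.6 CPM in KO, against 38.8, 45.7 and 40.5 CPM in WT, a log2 fold change of 0.13 (95% interval −0.049 to 0.30). The KO values were close together, and WT replicate 2 lay among them. Ndufb3, an accessory subunit of the membrane arm, followed with 21.4, 21.3 and 22.1 CPM in KO and 19.5, 21.5 and 18.7 CPM in WT, and here too WT replicate 2 reached the KO range.

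The arms of complex I are described in turn. The NADH-oxidising module, counted with 5 genes, had a median log2 fold change of 0.016. It includes Ndufv1, the flavoprotein that takes electrons from NADH, at 67.9 ± 2.04 CPM in KO, against 66.9 ± 4.86 CPM in WT. It also includes Ndufs1, the large iron-sulphur subunit, at 104.3 ± 7.85 CPM in KO, against 106.8 ± 5.20 CPM in WT. Ndufv2, the partner of Ndufv1, averaged 68.6 ± 0.882 CPM in KO and 68.1 ± 3.47 CPM in WT. Ndufs4, whose loss in mice gives a disease like Leigh syndrome, averaged 37.0 ± 3.08 CPM in KO and 36.5 ± 1.01 CPM in WT. None of these 4 differed by more than its spread. The quinone-reducing module of 6 genes had a median of 0.070, and in it 5 genes were positive. Its summed level was 267.8, 278.7 and 269.6 CPM in KO and 254.7, 264.5 and 264.2 CPM in WT, so every KO sum lay above every WT sum. Ndufs8, which separated the genotypes by itself, is part of these sums. Of all tested genes, taken singly, 9.95% separated the genotypes in either direction, and no share was computed for sums of genes. The KO mean of the sums, 272.1 ± 5.83 CPM, was 104.2% of the WT mean of 261.1 ± 5.57 CPM. With single libraries left out the median was 0.041 to 0.094, and no gene of the module was called. Ndufs8, which carries iron-sulphur clusters, had 52.2, 52.3 and 53.1 CPM in KO and 49.3, 46.7 and 51.8 CPM in WT, so that every KO value lay above every WT value. Ndufa5 was the exception to the sign, at 24.9 ± 1.55 CPM in KO, against 25.3 ± 0.946 CPM in WT. The core subunits Ndufs3 and Ndufs7 averaged 22.6 ± 0.831 and 36.4 ± 3.47 CPM in KO and 21.05 ± 1.01 and 35.2 ± 3.17 CPM in WT. Ndufa6, an accessory subunit, had 36.3, 37.3 and 36.3 CPM in KO and 31.6, 37.7 and 32.8 CPM in WT, where WT replicate 2 was the highest library of all. Ndufa9, an accessory subunit that binds NADPH, averaged 99.0 ± 3.25 CPM in KO and 96.3 ± 1.71 CPM in WT.

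The proton-pumping membrane module of 10 genes had a median of 0.035, with 7 positive. Ndufa10 was higher in every KO library, at 91.8, 89.8 and 91.7 CPM, than in every WT library, at 81.6, 89.8 and 87.8 CPM, with KO replicate 2 (89.80) and WT replicate 2 (89.77) nearly level. Ndufb9 was lower in every KO library, at 26.5, 26.8 and 25.9 CPM, than in every WT library, at 27.4, 27.4 and 27.3 CPM. Its gap was narrow, and KO stood at 96.5% of WT. Ndufb8 was the steadiest of all members, at 68.3, 69.8 and 69.2 CPM in KO, against 69.4, 66.7 and 68.6 CPM in WT. Its SD over the 6 libraries was 1.59% of its mean, below the 2.19% that counting alone would give on average. Of the remaining accessory subunits of this arm, Ndufb10 averaged 46.9 ± 3.47 CPM in KO and 43.8 ± 2.34 CPM in WT, and Ndufa8 65.3 ± 4.49 CPM in KO and 61.5 ± 2.86 CPM in WT. Ndufb7 averaged 45.1 ± 4.57 CPM in KO and 43.4 ± 1.69 CPM in WT, and Ndufb5 49.1 ± 4.31 CPM in KO and 48.5 ± 1.94 CPM in WT. Ndufa3 and Ndufc2 were level, at 31.5 ± 2.81 and 51.1 ± 2.07 CPM in KO and 31.5 ± 0.680 and 51.5 ± 2.75 CPM in WT.

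Complex II, succinate dehydrogenase, also serves the citric acid cycle. All 4 subunits had a positive log2 fold change, with a median of 0.053, and complex II held the single member with an unadjusted p under 0.05. That gene was Sdhc (ENSMUSG00000058076, chromosome 1: 171127165 to 171150603, minus strand, GRCm38), a membrane anchor that binds haem and ubiquinone. Sdhc had 148, 151 and 138 CPM in KO replicates 1 to 3, against 128, 132 and 135 CPM in WT replicates 1 to 3. Every KO value was above every WT value, and KO replicate 3 lay closest to the WT range. The KO mean of 145.6 ± 6.39 CPM was 110.5% of the WT mean of 131.8 ± 3.69 CPM. The log2 fold change was 0.14 (SE 0.060, 95% interval 0.0044 to 0.28), which did not pass adjustment (limma, unadjusted p = 0.0446, Benjamini-Hochberg adjusted p = 0.866). With its 6 CPM values alone, the exact permutation test (two-sided) gave p = 0.1, the smallest that 3 against 3 allow. Under the 18 alternative fits the adjusted p of Sdhc lay between 0.511 and 1.

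The other subunits of complex II differed less. Sdhb, the iron-sulphur subunit, had 118, 115 and 113 CPM in KO and 103, 119 and 111 CPM in WT. Sdhd, the second membrane anchor, had 105, 106 and 99.2 CPM in KO and 99.5, 97.4 and 102 CPM in WT. Sdha, the flavoprotein that oxidises succinate, had 272, 258 and 274 CPM in KO and 257, 269 and 274 CPM in WT. In all 3 the genotypes overlapped. The sum over complex II was 644, 629 and 624 CPM in KO and 588, 618 and 623 CPM in WT. All 3 KO sums lay above all 3 WT sums, with KO replicate 3 and WT replicate 3 nearly level. Sdhc, which separated the genotypes by itself, is part of these sums, and none of the other 3 subunits separated them. Such separation, in either direction, was found for 9.95% of single tested genes, and no share was computed for sums of genes. The KO mean was 103.7% of the WT mean for Sdhb, 103.8% for Sdhd and 100.5% for Sdha.

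Complex III, the cytochrome bc1 complex, had 7 measured subunits, 5 positive and 2 negative, with a median log2 fold change of 0.037. Uqcrq, a small accessory subunit, had the largest log2 fold change of all members, 0.15, and also the widest interval, −0.15 to 0.44. The value was 0.018 to 0.24 when single libraries were left out. It had 64.3, 70.3 and 56.4 CPM in KO, against 47.6, 65.1 and 60.3 CPM in WT, so both genotypes spread widely and overlapped. Uqcrb, a small subunit that faces the matrix, was lower in every KO library, at 24.0, 22.4 and 25.03 CPM, than in every WT library, at 25.2, 25.5 and 26.0 CPM. Its log2 fold change was −0.10 (95% interval −0.27 to 0.067). Cyc1, the cytochrome c1 subunit, averaged 64.2 ± 0.917 CPM in KO and 61.8 ± 3.59 CPM in WT. Uqcrfs1, the Rieske iron-sulphur protein, averaged 91.8 ± 2.90 CPM in KO and 91.3 ± 2.50 CPM in WT. The core protein Uqcrc1 had 134, 151 and 131 CPM in KO and 131, 132 and 142 CPM in WT, with KO replicate 2 on top and the rest mixed. The other core protein, Uqcrc2, averaged 122.4 ± 5.32 CPM in KO and 122.9 ± 2.94 CPM in WT, and Uqcrh, the hinge subunit, 58.0 ± 4.002 CPM in KO and 56.4 ± 4.79 CPM in WT.

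Cycs encodes somatic cytochrome c, which carries electrons between complexes III and IV and is also released from mitochondria in apoptosis. It had the lowest log2 fold change of the members, −0.16 (SE 0.10, 95% interval −0.40 to 0.075), and KO stood at 89.0% of WT. Its values were 14.1, 10.9 and 12.7 CPM in KO, against 14.0, 13.8 and 14.6 CPM in WT, in replicate order. KO replicate 2 was the lowest library and KO replicate 1 lay inside the WT range. Cycs also had the fewest reads of the members, from 339 upward, and counting error alone gives it a coefficient of variation of 4.98% on average, against 10.1% observed. Cycs shares exact stretches with 43 other annotated genes, and 28.2% of its exonic 50-base stretches occur elsewhere among transcripts, so its counts are uncertain. Its log2 fold change was −0.087 without replicate 2 of both genotypes, and between −0.24 and −0.072 when single libraries were left out.

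Complex IV, cytochrome c oxidase, was counted with 10 genes, including Ndufa4, which was first assigned to complex I. Of these 5 were positive and 5 negative, around a median log2 fold change of 0.012. Cox6a1, a non-catalytic subunit in its widely expressed form, had 109, 131 and 106 CPM in KO and 97.0, 106 and 114 CPM in WT. KO replicate 2 stood apart at the top and the remaining libraries overlapped. Cox7c, a small structural subunit, had 18.04, 19.2 and 16.7 CPM in KO and 18.9, 20.5 and 18.7 CPM in WT, a log2 fold change of −0.10. Cox4i1, the subunit that binds ATP as a regulator, had 238, 265 and 242 CPM in KO and 231, 231 and 247 CPM in WT. Cox5a, a subunit on the matrix side, averaged 88.9 ± 2.96 CPM in KO and 91.6 ± 3.66 CPM in WT. Ndufa4 averaged 64.4 ± 2.59 CPM in KO and 64.5 ± 4.08 CPM in WT. Cox6c, a subunit of the membrane part, had 56.6, 58.7 and 62.0 CPM in KO and 62.8, 61.0 and 62.9 CPM in WT, so KO replicate 3 lay within the WT range. Cox5b, which binds zinc, averaged 31.7 ± 1.39 CPM in KO and 30.7 ± 1.68 CPM in WT, and Cox6b1, on the side of cytochrome c, 121.4 ± 3.11 CPM in KO and 118.9 ± 5.11 CPM in WT. Cox7a2 and Cox7b, small subunits, averaged 69.5 ± 2.93 and 86.3 ± 4.20 CPM in KO and 68.3 ± 3.76 and 86.9 ± 3.78 CPM in WT. The genotypes overlapped in every gene of complex IV.

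Complex V was measured through 5 subunits, 4 positive and 1 negative, with a median of 0.030 and a KO sum that was 100.1% of the WT sum. The catalytic beta subunit Atp5b had 821, 827 and 803 CPM in KO, against 847, 799 and 842 CPM in WT. The alpha subunit Atp5a1 had 647, 732 and 721 CPM in KO, against 704, 664 and 725 CPM in WT. The genotypes overlapped in both genes. Atp5c1, the gamma subunit that forms the rotating shaft, was higher in every KO library, at 152.8, 156.6 and 153.4 CPM, than in every WT library, at 152.8, 148.0 and 152.5 CPM, with KO replicate 1 (152.81) and WT replicate 1 (152.80) nearly level. Atp5d, the delta subunit, had 114, 137 and 109 CPM in KO and 104, 112 and 121 CPM in WT, again with KO replicate 2 on top. Atp5o, the stalk subunit that confers oligomycin sensitivity, averaged 44.0 ± 1.34 CPM in KO and 42.3 ± 2.74 CPM in WT.

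Members on chromosome 7, which carries Ube3a, had log2 fold changes near 0. The 4 members on chromosome 7 are Ndufa3, Cox6b1, Ndufc2 and Uqcrc2, which lie 55.6, 28.6, 38.1 and 61.3 Mb from Ube3a. Their log2 fold changes were −0.0056, 0.031, −0.010 and −0.0059. In all 4 the genotypes overlapped.

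Libraries were also compared over all members at once. The mean deviation of log2(CPM + 1) from the 6-library mean, taken over the 48 genes, was −0.012, 0.046 and 0.0097 in the KO libraries (replicates 1 to 3, as in every list of values) and −0.040, −0.022 and 0.018 in the WT libraries. KO replicate 2 was the highest library for 23 of 48 members, and the lowest was WT replicate 1 for 16 and WT replicate 2 for 15. Over all 12118 tested genes KO replicate 2 was the highest library for 3035 and the lowest for 3237, and WT replicates 1 and 2 were the lowest for 2977 and 1888. Complexes I and IV ranked KO replicate 2 first, at 0.051 and 0.050, and so did complex V, at 0.085. Complex II ranked KO replicate 1 first, at 0.059, and WT replicate 1 last, at −0.082. Complex III ranked WT replicate 3 first, at 0.048, just above KO replicate 2, at 0.046. Cycs went the other way, with its lowest value in KO replicate 2.

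**Figure D2:**
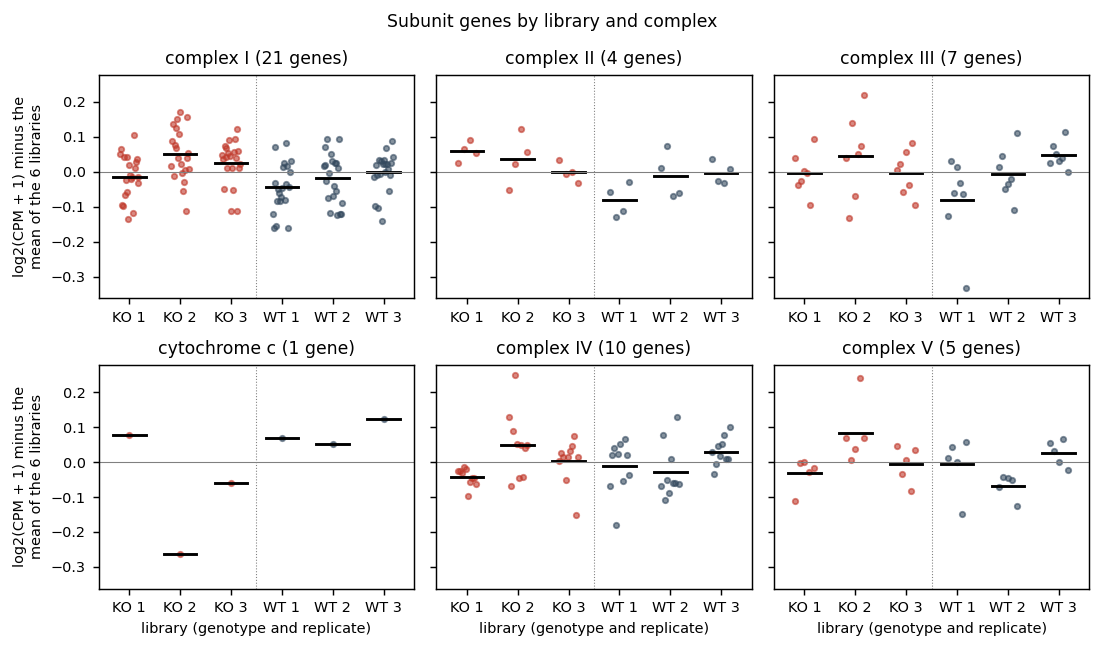
Deviation of log2(CPM + 1) from the mean of the 6 libraries (vertical axis) in each library (horizontal axis: KO replicates 1 to 3, then WT replicates 1 to 3) for the genes of each complex; points are genes and black bars their mean. KO replicate 2 has the highest bar in complexes I, IV and V and the lowest in cytochrome c, and the bars of the genotypes overlap in every panel but that of complex II.

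Deviations of single libraries varied with base composition. Across the 48 members, the GC content of the main transcript and the deviation in KO replicate 2 had a Pearson r of 0.68 and a Spearman rho of 0.60. In WT replicate 1 r was −0.45, and in KO replicate 3 it was −0.36. The same relation was present over 12106 genes, at r = 0.56 in KO replicate 2 and −0.36 in WT replicate 1. These are correlations across genes that share a library, so they describe the libraries and carry no p. Among the 24 members above the median GC content of 50.4%, 21 were positive with a median log2 fold change of 0.056. Among the 24 at or below it 13 were positive, with a median of 0.0071. Cycs, with 40.8% GC, has the lowest GC content of the members, and Atp5d and Cox6a1 lie at 59.3% and 58.8%. After a smoothed (lowess) trend with GC over all genes was removed from each library, an alternative chosen after seeing the data, 32 of 48 were positive and the median was 0.013. The mean deviation was then −0.014, 0.032 and 0.014 in the KO libraries and −0.023, −0.026 and 0.017 in the WT libraries, so KO replicate 2 was still the highest. No member was called in that fit either.

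**Figure D3:**
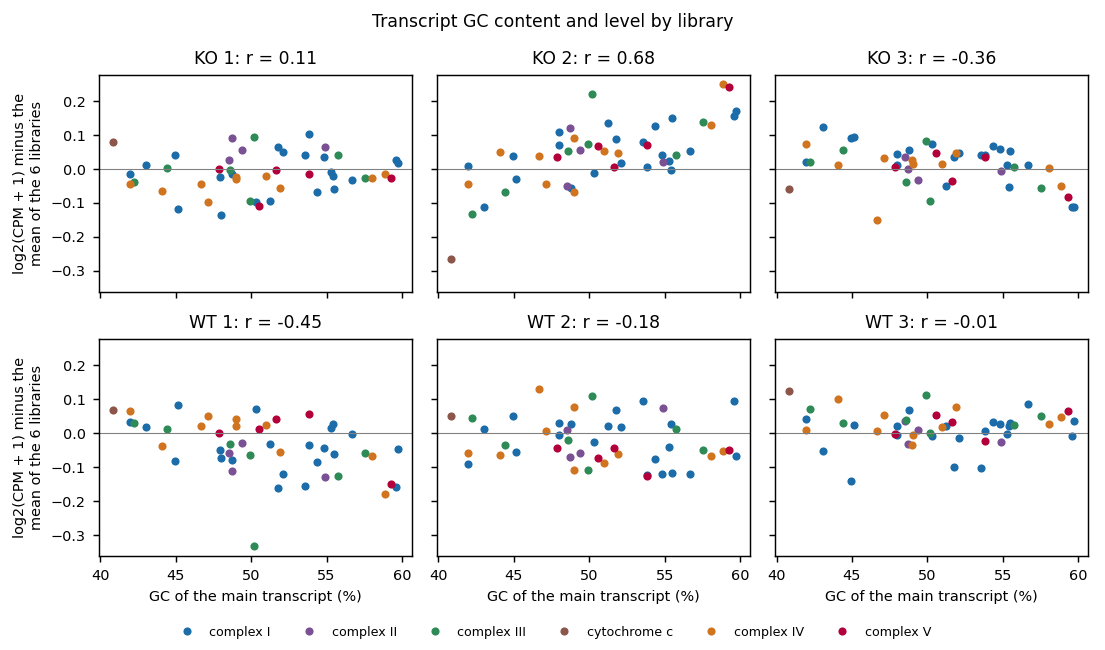
GC content of the main transcript in percent (horizontal axis) against the deviation of log2(CPM + 1) from the 6-library mean (vertical axis), with 1 panel per library and 1 point per gene, coloured by complex. Points slope upward in KO replicate 2 (r = 0.68) and downward in WT replicate 1 (r = −0.45).

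The spread between libraries was small for the pathway, and about as small in several related lists. The median SD over the 6 libraries was 5.03% of the mean for the members, against 8.92% for all tested genes and 7.22% for the 8085 genes in the same range of mean level. It was 5.02% for the citric acid cycle, 5.58% for the mitochondrial ribosome and 5.86% for the cytosolic ribosome. For further nuclear subunits it was 6.45%, and for subunits made from mitochondrial DNA 13.0%. The steadiest were Ndufb8, Atp5c1 and Ndufb9, at 1.59%, 1.80% and 2.26%. The least steady were Uqcrq, Cox6a1 and Cycs, at 13.1%, 10.3% and 10.1%. Counting error differs with the reads of a gene and was 2.27% for the median member.

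**Figure D4:**
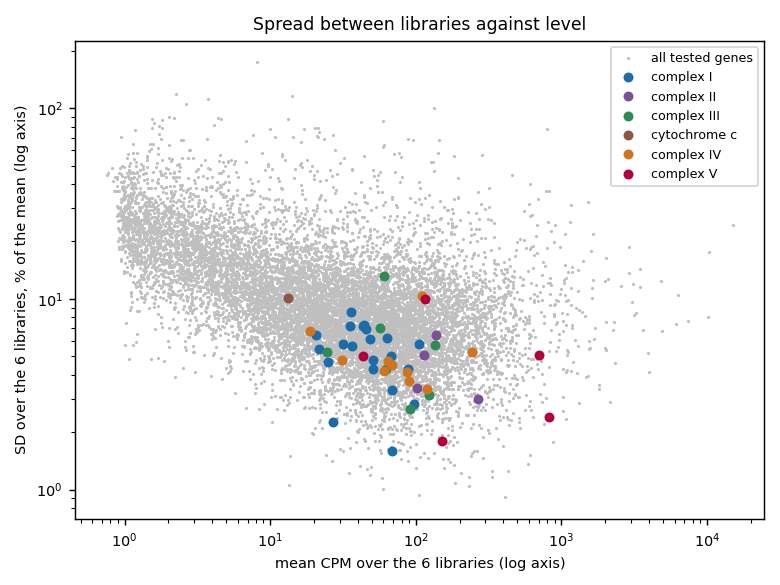
Mean CPM over the 6 libraries (horizontal, log axis) against the SD over the 6 libraries as a percentage of the mean (vertical, log axis); grey points are the 12118 tested genes and coloured points the 48 members by complex. Most members lie in the lower part of the cloud, between 1.59% and 13.1%.

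Levels between genes are compared per kilobase of the main transcript. The order was led by complex V and complex IV genes, with Atp5b at 426 ± 6.56 CPM per kb in KO and 433 ± 13.9 in WT, Cox4i1 at 325 ± 19.1 in KO and 309 ± 12.0 in WT, and Atp5a1 at 283 ± 18.8 in KO and 282 ± 12.5 in WT. Cox6b1, at 196 ± 5.03 CPM per kb in KO and 192 ± 8.27 in WT, and Cox6a1, at 202 ± 23.8 in KO and 185 ± 14.6 in WT, came next and did not differ from each other beyond their spread. Within complex I the highest was Ndufb8, at 101.6 ± 1.12 CPM per kb in KO and 100.3 ± 2.01 in WT. The lowest there was Ndufs3, a core subunit of the quinone-reducing arm, at 21.6 ± 0.795 in KO and 20.1 ± 0.964 in WT. In complex II, Sdhb and Sdha lay at 101.0 ± 2.52 and 92.4 ± 3.03 CPM per kb in KO and at 97.4 ± 6.86 and 92.0 ± 3.11 in WT. In complex III the highest was Uqcrh, at 106 ± 7.32 CPM per kb in KO and 103 ± 8.76 in WT. Cycs was lowest of all 48, at 4.02 ± 0.512 CPM per kb in KO and 4.52 ± 0.127 in WT.

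Ratios of levels per kilobase were taken between a few subunits that sit together in a complex. The ratio of Atp5a1 to Atp5b was 0.611 to 0.697 in KO and 0.644 to 0.668 in WT. The ratio of Atp5b to Atp5c1 was 3.19 to 3.27 in KO and 3.28 to 3.38 in WT. The KO libraries lay below the WT libraries, with KO replicate 1 (3.270) and WT replicate 2 (3.284) nearly level. Atp5c1 separated the genotypes by itself, and the pair was chosen after its values were seen. How often other pairs of genes separate was not computed. That of Sdha to Sdhb was 0.885 to 0.957 in KO and 0.891 to 0.978 in WT. The labels do not state how reads that match several places were counted. Members that share stretches with pseudogenes or other annotated genes are therefore uncertain. Over 20% of exonic 50-base stretches were shared in 7 members, Uqcrb (43.2%), Ndufs3 (35.8%), Cycs (28.2%), Atp5o (25.6%), Ndufb9 (23.4%), Cox7c (23.0%) and Cox5b (21.8%). Across the 48 genes the log2 level per kilobase and the shared percentage had r = −0.41 and rho = −0.15. Of these 7, 3 were positive with a median log2 fold change of −0.050. Of the 31 members without shared stretches 25 were positive, with a median of 0.037. Whether counting used strand is not stated in the labels, so reads of members that overlap a gene on the opposite strand, such as Ndufb5 with Mrpl47 over 616 bases and Uqcrc2 with Pdzd9 over 504 bases, cannot be told apart from those of that gene. Ndufb9 overlaps Gm49356 over 201 bases and Ndufb8 overlaps Gm20538 over 134 bases, both on the same strand, where strand does not separate the reads.

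**Figure D5:**
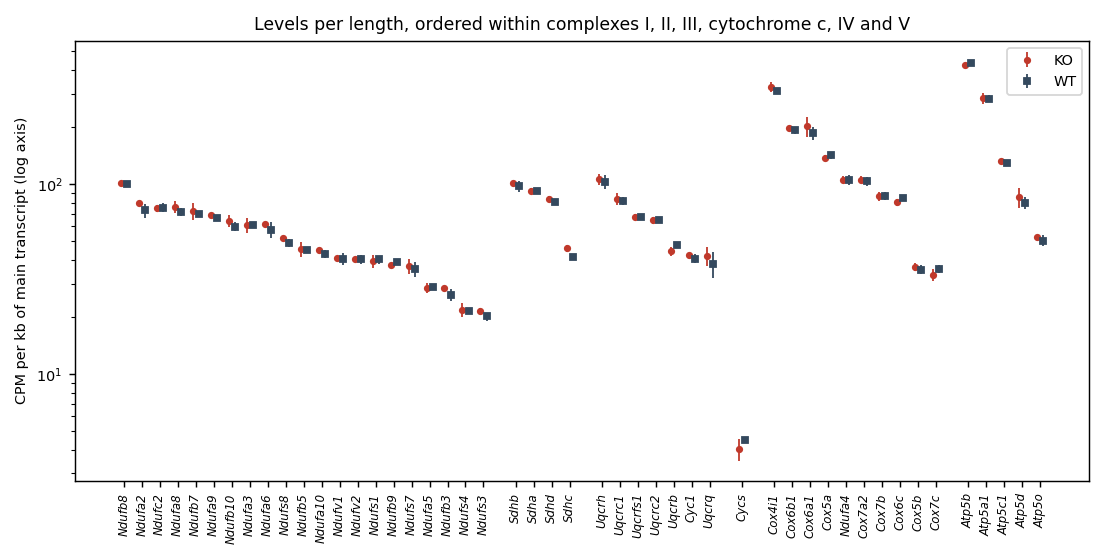
Level in CPM per kilobase of the main transcript (vertical, log axis) for the 48 genes (horizontal axis), ordered within each complex; red circles are KO and dark squares WT, with bars of 1 SD over 3 libraries. KO and WT lie on top of each other in most genes, and the range runs between about 4 in Cycs and about 430 in Atp5b.

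The NRF1 letters marked in the promoters of Cox6a1, Sdha and Atp5c1 were also present in those of Atp5o, Ndufa5, Ndufa6, Ndufa8, Sdhd and Uqcrc1. Of these 9 genes 8 were positive, with a median log2 fold change of 0.052, and the 28 matched members without the letters had 20 positive and a median of 0.024. Without replicate 2 of both genotypes these counts were 6 of 9 and 11 of 28, with medians of 0.020 and −0.018. A median GC content of 53.6% in the main transcripts of these 9, against 50.4% in those 28, went with it, and its part was not tested. The letters CCGGAAGT of ETS factors were present in 2 of 37 members (5.41%, against 10.1% of tested genes), and AANATGGCG of YY1 in 4 (10.8%, against 6.61%). CCAAT was present in 13 (35.1%, against 43.4%) and TATAAA in 3 (8.11%, against 8.21%). Nrf1 itself had 38.5 ± 1.82 CPM in KO, against 38.9 ± 2.54 CPM in WT.

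Related gene lists gave no called gene either (limma with Benjamini-Hochberg adjustment over all tested genes). Of 32 tested further nuclear subunits 22 were positive, with a median log2 fold change of 0.044. This rested on single libraries, with a median of 0.012 without KO replicate 2 and 0.021 without WT replicate 2. Without replicate 2 of both genotypes 16 of 32 were positive and the median was −0.0028. The smallest p among them belonged to Ndufa13, at 45.7 ± 3.97 CPM in KO, against 40.3 ± 3.23 CPM in WT, and to Ndufs5, at 11.9 ± 0.738 CPM in KO, against 10.5 ± 0.632 CPM in WT. Of 45 assembly factors 23 were positive, the median was 0.0012, and 2 had an unadjusted p under 0.05, where 4.13% of all tested genes had one. The genotypes did not overlap in 8 of the 45, where 9.95% of all tested genes did not. Tmem126b, a factor for the membrane arm of complex I, had 19.0, 20.8 and 23.0 CPM in KO and 25.6, 27.2 and 24.98 CPM in WT, so every KO library was lower (log2 fold change −0.30, limma adjusted p = 0.866). Tmem126b lies on chromosome 7, at 90467438 to 90476001, as does Ube3a, at 59228750 to 59311536. The part of this position was not tested. Ttc19, which acts in the maturation of complex III, had 7.64, 7.33 and 7.95 CPM in KO and 9.60, 9.69 and 8.71 CPM in WT, again lower in every KO library (log2 fold change −0.26, limma adjusted p = 0.866). Of 16 regulators of mitochondrial genes 5 were positive, with a median of −0.012. Gabpa averaged 83.2 ± 7.94 CPM in KO and 92.1 ± 3.97 CPM in WT, Tfb2m 6.37 ± 1.66 in KO and 7.51 ± 1.64 in WT.

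The citric acid cycle had 6 of 13 genes positive and a median of −0.016, which was 0.0010 without WT replicate 1, with the smallest p in Idh3a (log2 fold change −0.17) and Dld (−0.12). The mitochondrial ribosome had 29 of 48 positive and a median of 0.018, with the smallest p in Mrps2 (−0.13) and Mrps28 (−0.20). The cytosolic ribosome had 17 of 32 positive and a median of 0.0046, which was −0.020 to 0.043 with single libraries left out, with the smallest p in Rpl30 (−0.19). Among isoforms specific to other tissues, Cox7a1 had 1.49 ± 0.517 CPM in KO, against 1.54 ± 0.236 CPM in WT, and Cox6a2 had 0.976 ± 0.235 CPM in KO, against 0.934 ± 0.623 CPM in WT. Cox6b2 averaged 0.253 CPM in KO and 0.223 CPM in WT, Cox4i2 0.116 CPM in KO and 0.179 CPM in WT, and both were too low to be tested. Cox7a2l, a supercomplex factor related to Cox7a2, had 48.7 ± 1.64 CPM in KO, against 46.8 ± 5.66 CPM in WT.

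Subunits made from mitochondrial DNA varied more than the nuclear members. Of 13 such genes 10 were tested, 1 was positive and the median log2 fold change was −0.12. Leaving out KO replicate 2 gave −0.022, leaving out WT replicate 1 gave −0.053, and with replicate 2 of both genotypes left out it was −0.088. Their mean deviation was −0.020, −0.28 and 0.063 in the KO libraries and 0.23, −0.031 and 0.038 in the WT libraries. KO replicate 2, highest for the nuclear members, was lowest here, and WT replicate 1, lowest for the nuclear members, was highest. These genes have 34.1% to 39.9% GC, below every nuclear member. The smallest p were those of mt-Atp6, at 1.80, 1.09 and 2.16 CPM in KO, against 2.34, 2.23 and 2.52 CPM in WT, and mt-Nd6, at 117, 80.2 and 86.3 CPM in KO, against 154, 109.6 and 100.5 CPM in WT. The level of mt-Co1 was 4906 ± 505 CPM in KO and 4870 ± 142 CPM in WT, whereas mt-Co2, mt-Co3 and mt-Atp6 stayed under 3 CPM in every library. These low genes are among the 10 tested, and their values are uncertain as levels. How reads that match several places were counted is not stated in the labels, and its part here was not tested.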

How the data were processed

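A single table was deposited, with expression for every gene and library beside the authors' fold changes and p-values. Its expression columns are named CPM per the file headers, and their range shows log2 CPM with a prior count. The decimal mark of values of size 1 or more had been lost and was restored from the steps of whole reads, which came out whole within 1e-06 for 100% of genes in each library. The authors' deposited p-values were used only as a check: limma-voom on the recovered reads matched 16830 of them within a relative gap of 4.96e-10. A separate limma-voom fit on the tested genes alone called 1 gene, against 2 in the fit reported. Tools named in the submitters' processing notes are Cufflinks, FastQC 0.11.15, HTSeq 0.11.0, HISAT2 2.1.0 and Trimmomatic 0.36. The genome build, the annotation and the strand setting were not given in the sources used here. Per the labels' protocols, RNA from total RNA extracts was made into mRNA libraries.

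Recovered reads were turned into CPM with the scaled library sizes of the authors. A gene was fitted if 3 or more libraries reached 1 CPM. The fit was made on log2(CPM + 1) by limma 3.58.1 under R 4.3.3 (eBayes, intensity trend) on genotype alone, and p-values were Benjamini-Hochberg adjusted over all 12118 genes. A gene was called at an adjusted p under 0.05, two-sided. The steps were tested on simulated reads. Replicate libraries differed beyond counting noise and were kept apart. Positions, lengths and GC content come from GENCODE M21 (GRCm38), matched by identifier for all 48 members and for 16820 of the 16836 genes, and the build used by the authors is not known.

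The members and all lists were chosen with earlier results of these data known. Genes named are the largest differences and highest levels per kilobase in each complex, members that separate the genotypes, the steadiest and least steady, those on chromosome 7, and the 2 smallest p-values of each other list, while other members and markers were named to show their role. One gene that this rule names is not reported here. Ratios between members were chosen after their values were seen.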

Additional observations from a re-analysis of the deposited data

How the results depend on the processing

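No member was called in any of the 18 alternative fits (pseudocounts, filters, library sizes, limma-voom, the deposited log2 CPM, GC-corrected levels, a replicate block, a term for replicate 2 and left-out libraries), and the smallest adjusted p lay between 0.431 and 1. The largest log2 fold change of any member in any fit had a size of 0.243, that of Cycs without KO replicate 1. Of the 48 members 23 kept their sign in every fit, 17 of them higher in KO.

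Without replicate 2 of both genotypes the median of the members was −0.0070 and the mean difference of complex V, KO minus WT, was −0.028, against 0.032 with all libraries; that of complex IV was −0.029, against 0.0067. The cause was not tested. Over all genes the count of changed genes, 2 as reported, was 1 with a filter of 5 CPM, with limma-voom and with no filter, 24 without replicate 2 of both genotypes, and 1 to 8 with single libraries left out (8 without WT replicate 2).

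Same-numbered libraries correlated over genes at −0.22, −0.13 and 0.14, and not every library correlated best with its own number. These correlations rest on 3 libraries per genotype and cannot settle whether the numbers pair the samples. Xist was nearly absent from replicate 2 of both genotypes. The replicate block left 0 members and 2 genes called, and the smallest adjusted p of a member was then 0.927 (limma). Medians of some other lists without single libraries, a choice made after seeing the data, stand beside them. Those of the remaining lists are not given. For 45 members a change beyond 1.25-fold lay outside the 95% interval.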
